A study of Homo sapiens with 4 samples.

Results

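Interferon-stimulated genes were measured in HML58-3 cells after a mock treatment or after DAC, OR-2003 or OR-2100. They were taken from a list of 46 genes that carry out or regulate the interferon response, matched to the array through the RefSeq accession of each probe. A probe was found for 45 of the 46 listed genes, among 25002 genes named in this way. IFI27 was the listed gene without a probe and is not analysed here. HML58-3 is a derivative of HCT116, a human colorectal cancer line, and was engineered to carry a luciferase reporter under a methylated UCHL1 promoter, so that all 4 conditions share this reporter. DAC (decitabine) is a nucleoside analog that depletes DNA methyltransferases and causes loss of DNA methylation, and OR-2003 and OR-2100 were developed by the study as prodrugs of it. Each drug was used at 1 μM, added on day 1, and RNA was extracted on day 5. The composition of the mock treatment is not given in the sources used here, beyond that the drugs were dissolved in DMSO. There was 1 array per condition, so no difference below has a replicate check or a p-value, and the 3 drugs share the same mock array.

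Interferons bind receptors at the cell surface and, through JAK kinases, activate a complex of STAT2, IRF9 and a further STAT protein. This complex binds the interferon-stimulated response element in the promoters of its target genes, whose products degrade or trap viral RNA, block viral entry and budding, or modify proteins with the ubiquitin-like protein ISG15. Some of these products, such as IRF7, act back on the transcription of interferons. DNA-demethylating drugs are known to raise such genes in colorectal cancer cells.

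The response element is shown here in the RefSeq promoters (GRCh38.p14) of genes on which the results turn. They are 4 genes whose mRNA was higher with every drug (ISG15, IFI6, IFIT1 and BST2), the adjacent genes IFITM1 and IFITM3, of which only the former was higher, IFI44L, where the drugs were furthest apart among genes well above background on the 3 drug arrays, and the regulator STAT2, whose level moved little. Each sequence is the 170 bases before the transcription start, 5′ to 3′ along the gene. The capitals mark every match to GAAA, a gap of 2 bases of any kind and GAAA, or its reverse complement, and a run of capitals longer than that holds overlapping matches. STAT2 holds no match, and the last capitals of IFITM1 are the first bases of a match that runs past the start.
ISG15 (chr1:1013327-1013496, plus strand): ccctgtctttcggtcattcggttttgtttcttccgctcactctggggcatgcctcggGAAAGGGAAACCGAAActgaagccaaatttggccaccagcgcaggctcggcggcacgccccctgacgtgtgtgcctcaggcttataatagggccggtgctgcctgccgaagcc
IFI6 (chr1:27672193-27672362, minus strand): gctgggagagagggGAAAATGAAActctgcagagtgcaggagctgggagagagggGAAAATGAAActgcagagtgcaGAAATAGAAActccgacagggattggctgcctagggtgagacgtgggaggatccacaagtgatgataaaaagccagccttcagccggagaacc
IFIT1 (chr10:89392453-89392622, plus strand): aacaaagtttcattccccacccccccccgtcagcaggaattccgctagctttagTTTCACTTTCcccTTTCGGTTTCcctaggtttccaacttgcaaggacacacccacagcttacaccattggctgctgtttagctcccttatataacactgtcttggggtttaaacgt
BST2 (chr19:17405631-17405800, minus strand): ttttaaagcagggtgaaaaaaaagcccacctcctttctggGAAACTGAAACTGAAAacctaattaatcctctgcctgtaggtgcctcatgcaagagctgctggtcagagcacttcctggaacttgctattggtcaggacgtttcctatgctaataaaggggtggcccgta
IFITM1 (chr11:313870-314039, plus strand): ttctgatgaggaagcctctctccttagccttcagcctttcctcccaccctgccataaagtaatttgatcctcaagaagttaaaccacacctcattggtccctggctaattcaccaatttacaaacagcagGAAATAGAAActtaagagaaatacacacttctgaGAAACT
IFITM3 (chr11:320861-321030, minus strand): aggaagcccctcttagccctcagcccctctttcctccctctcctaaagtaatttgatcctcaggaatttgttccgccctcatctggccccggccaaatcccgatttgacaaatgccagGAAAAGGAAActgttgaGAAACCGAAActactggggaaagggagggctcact
IFI44L (chr1:78620278-78620447, plus strand): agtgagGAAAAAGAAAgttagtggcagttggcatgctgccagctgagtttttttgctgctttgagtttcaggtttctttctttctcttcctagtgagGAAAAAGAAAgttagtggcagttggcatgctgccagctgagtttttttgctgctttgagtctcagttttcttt
STAT2 (chr12:56360108-56360277, minus strand): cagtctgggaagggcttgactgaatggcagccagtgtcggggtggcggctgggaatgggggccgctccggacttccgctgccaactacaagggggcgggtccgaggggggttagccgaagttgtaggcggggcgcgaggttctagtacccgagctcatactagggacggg

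The level of a gene is its log2 intensity minus the array's own 75th percentile over gene probes. A gene is called induced where it was at least 2-fold higher than mock with a level of -1 or more with the drug, and reduced where the reverse held. Among the 45 measured genes, 23 were induced with DAC, 22 with OR-2003 and 24 with OR-2100. These are 51.1%, 48.9% and 53.3% of them, whereas 5.78%, 5.89% and 5.81% of all named genes were induced with the same drugs. The number reduced was 0 with each drug, against 5.96%, 6.06% and 6.82% of all named genes after DAC, OR-2003 and OR-2100. With all 3 drugs, 22 of the 45 were induced, against 5.28% of all named genes, and 0 were reduced, against 5.22%. The median log2 difference from mock was 1.67, 1.63 and 1.88 after DAC, OR-2003 and OR-2100, whereas over all named genes it was -0.11, -0.093 and -0.23. In RNA of whole cultures, a change in every cell and a change in some of the cells cannot be told apart. Over the 36 genes well above background on all 4 arrays the medians were 1.32, 1.25 and 1.49.

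**Figure D1:**
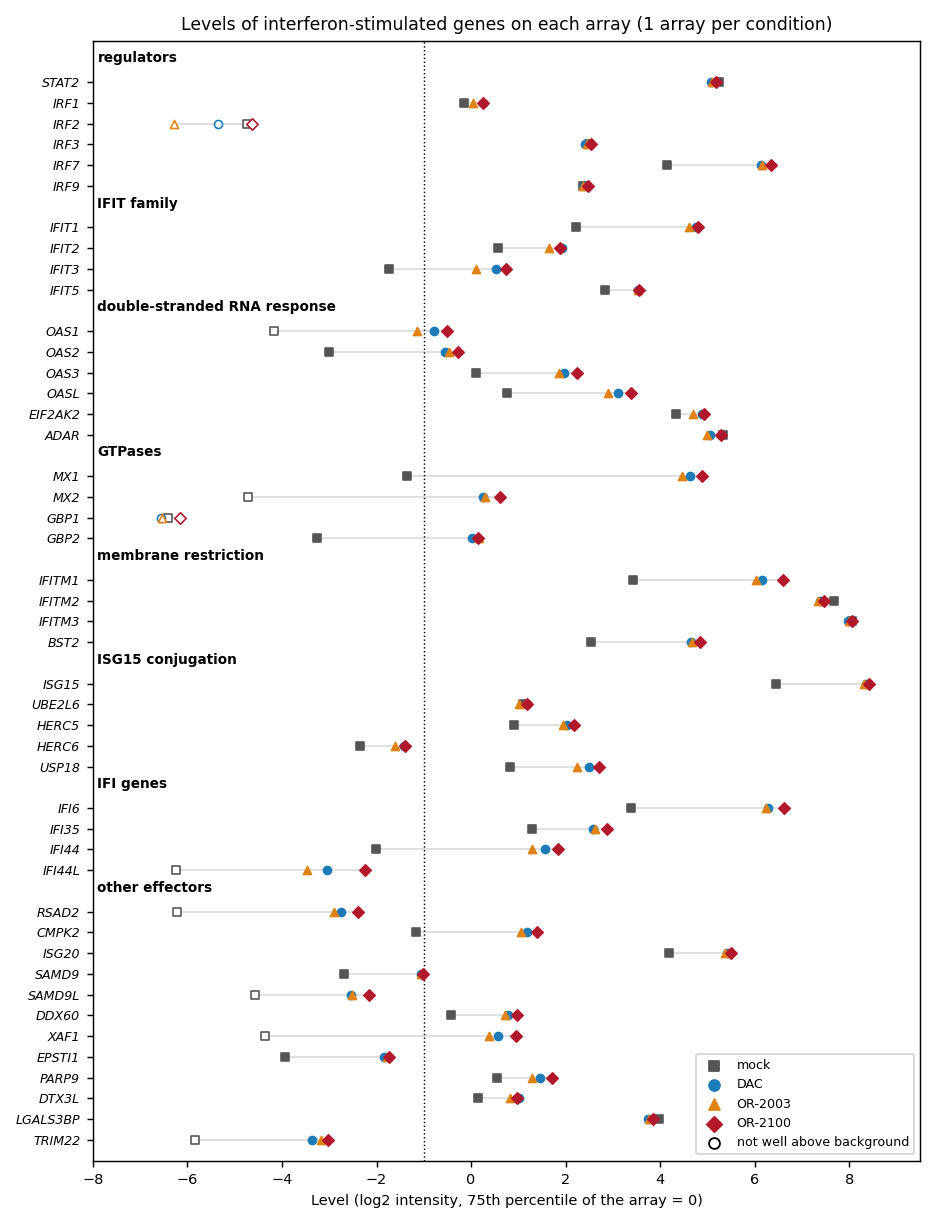
Level of each of the 45 genes on the 4 arrays, as log2 intensity relative to the array's 75th percentile, grouped by role. Grey squares are mock, blue circles DAC, orange triangles OR-2003 and red diamonds OR-2100, open symbols are not well above background, and the dotted line is the level of -1 used to call a gene induced. MX1 rose from -1.35 to between 4.45 and 4.89, whereas STAT2 and IFITM3 lay nearly at the same level on all arrays.

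A rise of 2-fold or more with all 3 drugs, whatever the level, was seen in 29 of the 45 genes, against 11.8% of all named genes. Of these 29, 7 were not induced by all 3 drugs, since their level stayed under -1 with at least 1 drug. A rise of any size with all 3 drugs was seen in 36 genes, against 30.4% of all named genes, and 5 genes were lower with all 3. The last 2 counts depended on scaling. They were 41 and 0 after quantile normalization, as with a percentile taken over probes well above background only, and 34 and 7 after scaling by the median. The share of all named genes higher with all 3 drugs was 38.4%, 43.9% and 24.98% under these settings in the same order. The share lower with all 3 drugs is not given here, so the counts of lower genes have no such comparison.

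Of the 6 regulators, 1 was induced, and it was IRF7, the factor that drives transcription of type I interferons once it is phosphorylated. IRF7 had a level of 4.14 on the mock array and 6.14, 6.15 and 6.35 after DAC, OR-2003 and OR-2100, or 4.0-, 4.03- and 4.63-fold higher. All 3 drug arrays were thus above mock and close to each other. The other regulators had a smaller difference or were not measurable. IRF1, an activator that interferon gamma induces, differed from mock by 0.41, 0.20 and 0.41 on the log2 scale after DAC, OR-2003 and OR-2100. STAT2, IRF3, which is activated by RNA and DNA sensors, and IRF9, the DNA-binding partner of STAT2, were each within 0.17 of mock on the log2 scale with every drug. IRF2, an antagonist of IRF1, was not well above background on any array.

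The IFIT proteins bind viral RNA that lacks the cap modifications of host mRNA, and 3 of the 4 were induced. IFIT1 was at 2.22 on the mock array and at 4.75, 4.61 and 4.79 after DAC, OR-2003 and OR-2100, or 5.75-, 5.22- and 5.93-fold higher. IFIT2 was at 0.58 on the mock array and at 1.91, 1.66 and 1.88 with the drugs in the same order, which was 2.53-, 2.12- and 2.47-fold higher. IFIT3, which stabilises IFIT1, was at -1.74 on the mock array and at 0.53, 0.10 and 0.74 with the drugs, or 4.81-, 3.58- and 5.57-fold higher. For each of these 3 genes, every drug array was above mock, and OR-2003 was the lowest drug. IFIT5 rose less, by 1.62-, 1.63- and 1.66-fold after DAC, OR-2003 and OR-2100, and was not induced.

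Of the 6 genes that act on double-stranded RNA, 3 were induced with all 3 drugs. The OAS enzymes make oligoadenylates that activate RNase L. OAS1 was not well above background with mock, and its level was -0.79, -1.13 and -0.51 after DAC, OR-2003 and OR-2100, which is at least 10.4-, 8.21- and 12.7-fold higher. It thus fell just short of the level of -1 with OR-2003 and was not induced with that drug. Here and below, "at least" sets the drug array against a floor on the mock array. The floor is the higher of the lowest level well above background there, -4.29, and the level of the probe itself. It does not give a strict lower bound, since OAS1 was not well above background at -4.17 on the mock array. It also holds only with the scanner's background correction. The differences given below with normexp are smaller for the listed genes concerned. OAS2 was at -3.01 on the mock array and at -0.55, -0.47 and -0.28 with the drugs in the same order, or 5.47-, 5.82- and 6.62-fold higher. OAS3 was at 0.11 on the mock array and at 1.97, 1.86 and 2.25 with the drugs, or 3.64-, 3.35- and 4.39-fold higher. OASL, which resembles the OAS enzymes but makes no oligoadenylates and enhances RIG-I signalling, was at 0.77 on the mock array and at 3.11, 2.90 and 3.37 with the drugs. These levels are 5.09-, 4.39- and 6.08-fold higher than mock. All the OAS genes were therefore above mock with every drug, with OR-2100 the highest drug for each. EIF2AK2, the kinase PKR that halts translation, was higher than mock by 0.55, 0.36 and 0.60 on the log2 scale and was not induced. ADAR, which edits adenosine to inosine in double-stranded RNA, differed by -0.28, -0.35 and -0.054.

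Among the 4 interferon-induced GTPases were the genes with some of the largest differences. MX1, which blocks the replication of influenza and other RNA viruses, was at -1.35 on the mock array and at 4.63, 4.45 and 4.89 after DAC, OR-2003 and OR-2100, or 63.4-, 55.9- and 75.6-fold higher. MX2, which restricts HIV and herpesviruses, was not well above background with mock and was at 0.26, 0.30 and 0.61 with the drugs, or at least 23.4-, 24.0- and 29.8-fold higher. GBP2, a guanylate-binding protein that acts on intracellular pathogens, was at -3.27 on the mock array and at 0.02, 0.16 and 0.14 with the drugs, or 9.73-, 10.8- and 10.6-fold higher. The 3 drug arrays lay far above mock for each of these genes. GBP1, the neighbour of GBP2 in the genome, was not well above background on any array.

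Of the 4 genes that restrict viruses at membranes, 2 were induced. IFITM1, which blocks viral entry at the cell surface, was at 3.43 on the mock array and at 6.15, 6.03 and 6.60 after DAC, OR-2003 and OR-2100, or 6.58-, 6.04- and 9.00-fold higher. BST2, tetherin, which holds budding virions on the cell, was at 2.54 on the mock array and at 4.66, 4.68 and 4.85 with the drugs, or 4.35-, 4.41- and 4.95-fold higher. IFITM2 and IFITM3, which block entry from endosomes, were already at 7.67 and 8.06 on the mock array. They differed from mock by between -0.34 and -0.0084 on the log2 scale over the drugs. IFITM1 alone of the 3 IFITM genes thus rose, although the printed stretches of both IFITM1 and IFITM3 hold the response element.

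ISG15 conjugation attaches the ubiquitin-like ISG15 to other proteins, and 3 of its 5 genes were induced. ISG15 itself was at 6.45 on the mock array and at 8.34, 8.30 and 8.41 after DAC, OR-2003 and OR-2100, or 3.71-, 3.62- and 3.90-fold higher. HERC5, its main human ligase, was at 0.90 on the mock array and at 2.03, 1.95 and 2.17 with the drugs, or 2.19-, 2.07- and 2.40-fold higher. USP18, which removes ISG15 and dampens interferon receptor signalling, was at 0.83 on the mock array and at 2.50, 2.25 and 2.71 with the drugs, or 3.18-, 2.67- and 3.67-fold higher. Substrate, ligase and protease were all above mock with every drug. UBE2L6, the conjugating enzyme between them, was within 0.084 of mock on the log2 scale with every drug. HERC6, a relative of HERC5, was higher by 0.94, 0.74 and 0.96 and did not reach 2-fold, whereas its second probe was higher by 1.15, 0.89 and 1.10, at a level under -1.

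Among the IFI genes, named for their induction by interferon, 3 of the 4 measured were induced. IFI6, a mitochondrial and endoplasmic reticulum protein that restricts flaviviruses, was at 3.37 on the mock array and at 6.28, 6.24 and 6.61 after DAC, OR-2003 and OR-2100, or 7.51-, 7.28- and 9.45-fold higher. IFI35, a partner of NMI, was at 1.28 on the mock array and at 2.58, 2.62 and 2.88 with the drugs, or 2.47-, 2.53- and 3.03-fold higher. IFI44 was at -2.01 on the mock array and at 1.57, 1.29 and 1.83 with the drugs, or 12-, 9.86- and 14.3-fold higher. OR-2100 was thus the highest drug for all 3 of these genes. IFI44L, the paralog beside IFI44, was not well above background with mock and was at -3.04, -3.47 and -2.24 with the drugs, or at least 2.37-, 1.76- and 4.12-fold higher. It became detectable with every drug but stayed under the level of -1.

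Of the 12 other effectors, 4 were induced with all 3 drugs. XAF1, an antagonist of the apoptosis inhibitor XIAP, was not well above background with mock and was at 0.57, 0.37 and 0.94 after DAC, OR-2003 and OR-2100, or at least 28.9-, 25.3- and 37.4-fold higher. CMPK2, a mitochondrial nucleotide kinase, was at -1.16 on the mock array and at 1.17, 1.06 and 1.40 with the drugs, or 5.03-, 4.66- and 5.88-fold higher. Both were well above the mock array with every drug. ISG20, an exonuclease that degrades viral RNA, was at 4.19 on the mock array and at 5.41, 5.36 and 5.49 with the drugs, or 2.32-, 2.25- and 2.46-fold higher. DDX60, a helicase linked to RIG-I signalling, was at -0.42 on the mock array and at 0.79, 0.71 and 0.96 with the drugs, or 2.30-, 2.19- and 2.60-fold higher. These were smaller rises, and OR-2003 was the lowest drug for all 4 genes. 

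RSAD2, viperin, which makes a chain-terminating nucleotide and lies beside CMPK2, was not well above background with mock and was at -2.76, -2.90 and -2.39 after DAC, OR-2003 and OR-2100, or at least 2.88-, 2.61- and 3.72-fold higher. SAMD9L, which inhibits poxviruses and slows translation, was likewise not measurable on the mock array and was at -2.55, -2.53 and -2.16 with the drugs, or at least 3.34-, 3.38- and 4.36-fold higher. TRIM22, an antiviral ubiquitin ligase, was at -3.37, -3.18 and -3.02 with the drugs, or at least 1.89-, 2.15- and 2.41-fold higher than a mock array on which it was not well above background. These 3 genes became detectable with every drug and remained dim. SAMD9, the neighbour of SAMD9L, was 3.12-, 3.10- and 3.18-fold higher with the drugs and EPSTI1 was 4.25-, 4.48- and 4.62-fold higher, both at a level under -1. PARP9 and DTX3L, which form a complex that modifies histones and are transcribed from a shared promoter region, were higher by 0.90, 0.75 and 1.16 and by 0.86, 0.68 and 0.81 on the log2 scale. PARP9 was thus induced with OR-2100 alone of the 3 drugs, by a margin that was not tested, and its second probe differed by 0.24, 0.11 and 0.46. LGALS3BP, a secreted glycoprotein, differed by -0.23, -0.20 and -0.14.

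The genes near or under background on the mock array are those whose size depended most on the background correction. With normexp in place of the scanner's correction, the log2 difference of MX2 was 1.84, 1.83 and 2.07 after DAC, OR-2003 and OR-2100, that of XAF1 was 2.30, 2.12 and 2.57, and that of OAS1 was 1.12, 0.92 and 1.32. GBP2 was then higher by 1.46, 1.53 and 1.49 and OAS2 by 1.03, 1.10 and 1.20. IFI44L, RSAD2, TRIM22 and SAMD9L differed by between 0.19 and 0.52. SAMD9 was higher by 0.54, 0.64 and 0.61 and EPSTI1 by 0.56, 0.68 and 0.62. MX1 differed by 5.06, 4.87 and 5.26. All of these genes lay above mock with every drug. HERC5, at 0.94, 0.79 and 0.94, and DDX60, at 0.83, 0.74 and 0.88, fell under 2-fold with every drug and lost the call of induced, as did IFIT2 with OR-2003, at 0.94. Under other scalings, IFIT2 and HERC5 fell under 2-fold with OR-2003 after scaling by the median or by spike-in probes, and ISG20 and DDX60 after scaling by the median.

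Of the 12 genes with more than 1 probe, 5 had probes that differ on whether the gene was induced with all 3 drugs. In IFIT2, OAS3 and XAF1 the second probe was higher than mock too, but its level stayed under -1 with at least 1 drug. It was higher by 1.61, 1.41 and 1.45 in IFIT2, by 2.18, 2.11 and 2.49 in OAS3 and by 4.22, 3.83 and 4.45 in XAF1, on the log2 scale after DAC, OR-2003 and OR-2100. In XAF1 neither probe was well above background with mock. In OAS2 the probes differed on the rise itself. A probe of another OAS2 transcript, brighter than the used probe on the mock array, differed by -0.23, -0.16 and 0.46. A further OAS2 probe, not well above background with mock, differed by 1.39, 1.56 and 1.93. The other CMPK2 probe was not well above background on any array and says nothing of a rise. In BST2 and IFITM1 the second probe gave nearly the same differences, 2.23, 2.15 and 2.49 in BST2 and 2.73, 2.50 and 3.21 in IFITM1.

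The study asks how the 2 prodrugs compare with DAC, and they were set against each other at the same dose and day in 3 pairs. Over the 43 genes well above background on all 3 drug arrays, OR-2100 had the highest level in 39, or 90.7%, against 27.6% of the 17544 named genes measured in the same way, which are the genes of comparison for all values between drugs. The exceptions were IRF1, IFIT2 and DTX3L, where OR-2100 minus DAC was -0.0036, -0.035 and -0.051 on the log2 scale, and GBP2, where OR-2100 minus OR-2003 was -0.016. Among the 1297 other named genes induced by all 3 drugs, OR-2100 was highest in 39.9%. The differences were small. The median of OR-2100 minus DAC was 0.19 on the log2 scale (range -0.051 to 0.80), whereas it was -0.040 over the genes of comparison. OR-2100 minus OR-2003 had a median of 0.22 (range -0.016 to 1.23), against -0.042. OR-2003 minus DAC had a median of -0.076 (range -0.43 to 0.19), against 0.0019.

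No gene of the 43 was 2-fold apart between OR-2003 and DAC or between OR-2100 and DAC, against 0.0798% and 0.137% of the genes of comparison. Between OR-2100 and OR-2003 there was 1, IFI44L, against 0.285%. IFI44L was higher with OR-2100 by 0.80 than with DAC and by 1.23 than with OR-2003 on the log2 scale, although all these levels were dim. By OR-2100 minus the mean of DAC and OR-2003, IFITM1 followed, with OR-2100 above DAC by 0.45 and above OR-2003 by 0.58. IRF2, which by the same measure differed more, was not well above background on any array. Spot noise was calculated from the spread within an array of 284 probes on several spots and well above background. For a difference of single spots between arrays it gives a standard deviation of 0.089 on the log2 scale. Of these probes, 0 measure the listed genes, and the value need not hold for dim genes. Spread between cultures was not measured, so no interval can be given for a difference between drugs, and neither likeness nor difference of the drugs was tested. The spike-in slope of the mock array was outside the range set by the software, at 0.899, and within it on the drug arrays, at 0.921, 0.913 and 0.955 after DAC, OR-2003 and OR-2100. Its part in these differences was not tested. The share of the genes of comparison with OR-2100 highest was 25.3% with normexp and ran from 27.6% to 73.6% over the scalings, and under the same settings it was highest in 37 to 43 of the 43 genes. Among the other named genes induced by all 3 drugs, the share was 37.9% with normexp and ran from 39.9% to 86.5% over the scalings.

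Listed genes that lie next to each other in the genome were not always called induced together. In 11 runs of adjacent listed genes, which hold 24 genes, 2 runs were induced in full (IFIT2 with IFIT3, and MX2 with MX1), 7 were split and 2 held no gene induced by all 3 drugs. In some split runs the other gene was higher with every drug too and missed the level or the fold of the call, as IFI44L beside IFI44, RSAD2 beside CMPK2, IFIT5 beside IFIT1 and HERC6 beside HERC5. GBP1, beside GBP2, was not measurable.

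RefSeq promoter windows, from 250 bases before to 50 after the start, were at hand for 34 of the 45 genes. The response element, searched on both strands as GAAA, a gap of 2 bases and GAAA, was in 23 of the 34 genes, or 67.6%, against 4.05% of 18678 other named genes. It was in 12 of the 15 genes induced by all 3 drugs and in 11 of the 19 that were not. CMPK2, IFI35 and XAF1 were induced by all 3 drugs without a match in their windows. Whether the motif has a part in the rise was not tested. Among genes on neither of the interferon lists used here, 4.88% of the 737 with the element and 4.83% of the 17904 without it were induced by all 3 drugs. In the sequences printed above, the first match begins at base -113 from the start in ISG15, -156 in IFI6, -116 in IFIT1, -130 in BST2, -40 in IFITM1, -52 in IFITM3 and -164 in IFI44L. The gamma-activated site, searched as TTC, a gap of 3 bases and GAA, was in 9 of the 34, or 26.5%, against 9.18% of the others. The median ratio of observed to expected CpG was 0.42 in the windows of the genes induced by all 3 drugs, 0.75 in those of the others and 0.76 in other named genes. A match is a description of the letters in the window. DNA methylation was not analysed here.

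Further genes of the pathway were read from lists of genes that are not among the 46. Of 50 other interferon-stimulated genes, 14 were induced by all 3 drugs, against 5.28% of all named genes, and 1 was reduced, against 5.22%. The medians of the 50 were 0.73, 0.55 and 0.55 after DAC, OR-2003 and OR-2100 on the log2 scale. The largest were RTP4, at least 13.7-, 11.7- and 16.5-fold higher, APOBEC3G, a cytidine deaminase that mutates retroviral DNA, at least 25.3-, 22.3- and 28.0-fold, and GBP5, a further guanylate-binding protein, at least 27.1-, 27.1- and 25.3-fold. PARP10, a mono-ADP-ribosyltransferase, was 6.02-fold higher as a mean over the drugs. TRIM38, which dampens innate signalling, was lower by a mean log2 difference of -1.46. OR-2100 was the highest drug in 26 of the 45 well above background on all drug arrays, or 57.8%, against 27.6% of the genes of comparison. It was the highest in 10 of the 14 induced by all 3 drugs. Of 14 interferon ligands, receptors and kinases, 0 were induced by all 3 drugs, against 5.28% of all named genes. IFNAR1, a subunit of the type I interferon receptor, was reduced with DAC and OR-2100, by a log2 difference of -1.02 and -1.10, and differed by -0.92 with OR-2003. IFNE, a type I interferon, differed by -0.83, -1.13 and -0.51, at a dim level. IFNB1, IFNK and IFNG were not well above background on any array. IFNL1, a type III interferon, was well above background only with drugs, at -1.53, -1.90 and -1.44, or at least 6.74-, 5.22- and 7.18-fold higher. These 3 genes were singled out after their values were seen.

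The label of the cells was checked against markers. Of 10 epithelial markers, 8 were well above background with mock, although KRT20 and VIL1 were not. EPCAM, CDH1 and CLDN4 were reduced with all 3 drugs, LGALS4 was induced with all 3 (5.58-fold as a mean over the drugs), and KRT20 was at least 7.90-, 8.71- and 7.0-fold higher. Of 11 leukocyte markers measured, 7 were well above background with mock and 7 with all 3 drugs, 3 were induced by all 3 drugs, and the summed level of the list was 0.43 on the log2 scale on the mock array and 3.13, 3.24 and 3.21 after DAC, OR-2003 and OR-2100. PTPRC, which all leukocytes carry, was well above background on all arrays, between -1.79 and -1.48, and was not higher with any drug. Of 5 fibroblast markers, 0 were induced, since their levels stayed under -1 or rose less than 2-fold, but DCN, COL1A2 and PDGFRA were well above background only with drugs and the list had medians of 2.58, 2.48 and 2.85 on the log2 scale. DCN was at least 6.63-, 7.26- and 6.60-fold higher after DAC, OR-2003 and OR-2100. Of 4 endothelial markers, 1 was induced, and PECAM1, well above background only with drugs, was at least 8.40-, 8.90- and 9.05-fold higher. These genes were singled out after their values were seen. The part of these markers in the results was not tested. Of 17 housekeeping genes measured, 0 were induced or reduced, with medians of -0.17, -0.16 and -0.33. Among all named genes, 5.28% were induced and 5.22% reduced by all 3 drugs, the shares to set beside the marker and housekeeping counts. Between 31601 and 33282 of 58201 gene probes were well above background on an array, and no gene spot was saturated.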

How the data were processed

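Total RNA of HML58-3 cells was labelled with Cy3 and hybridized to 4 Agilent SurePrint G3 8x60K version 3 arrays on 1 slide, with 1 array per condition. The authors deposited the scanner output, whose intensity per spot was background-corrected by Feature Extraction 12.1.0.3 and not normalized between arrays. The series table, which they also deposited, was identical to it.

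Control spots and marked spots (52 to 98 gene spots per array) were left out, spots of a probe were averaged, and log2 intensity was set relative to the 75th percentile of each array (Python 3.11.15, numpy 2.4.6, pandas 2.3.3). A probe was well above background where more than 0.5 of its spots were. Of 58201 gene probes, 34888 were named through a RefSeq table of GRCh38.p14. Each gene was represented by its probe with the highest mean signal over all arrays. This choice favours probes that rise, since the drug arrays are included. In OAS2 and PARP9 the probe used was dimmer on the mock array than another probe of the gene, at -3.01 and 0.55 against -2.72 and 0.74. The same rule was used for all named genes. The thresholds for induction follow the methods of the study. No statistical test was possible, and with so few arrays the precision is limited. The counting was tested on simulated data in which probes bright on the mock array were raised or lowered by more than the fold threshold. That test does not cover dim genes or genes near the threshold.

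The genes and lists were chosen with earlier results of these data known. Values on every array are given for genes induced or reduced by all 3 drugs, genes well above background only with drugs and genes whose probes differ on induction. From the further lists, the 4 largest induced and the 2 lowest reduced genes are named, and between drugs the 3 genes with the largest OR-2100 minus the mean of DAC and OR-2003. Alternatives were the series table, normexp (limma 3.58.1, offset 50, run on the median spot intensity), quantile normalization, other scalings, marked spots kept, the mean of probes, a 4-fold threshold, no level threshold and a filter on dim probes. Counts between drugs and of genes induced by all 3 were added after seeing the data. Methylation data were not analysed here. The values of 1 leukocyte marker are not reported here on their own.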

Additional observations from a re-analysis of the deposited data

Results flagged for a closer look

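In 4 of the 45 genes the difference from mock had opposite signs with 2 drugs, and these differences between drugs were not tested. IRF2 was lower than mock with OR-2003 (-1.56 on the log2 scale) and higher with OR-2100 (0.097), a gap of 1.65, and it was not well above background on any array. GBP1, which was not well above background on any array either, was at -0.14 from mock with DAC and at 0.26 with OR-2100, a gap of 0.40. IRF3 differed by -0.086 with DAC and by 0.037 with OR-2100, a gap of 0.12. UBE2L6 differed by -0.080 with OR-2003 and by 0.084 with OR-2100, a gap of 0.16. The gaps of IRF3 and UBE2L6 lie within 2 times the spot noise of 0.089.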

How the results depend on the processing

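The number of genes induced was 15 to 29 with DAC, 13 to 29 with OR-2003 and 16 to 30 with OR-2100 over the alternatives. The lowest counts came with the 4-fold threshold, which left 15, 13 and 16, and 13 induced by all 3 drugs. With the percentile of probes well above background they were nearly as low, at 16, 15 and 17, and 15 induced by all 3 drugs. Levels are lower under that scaling, so the level of -1 is a stricter threshold there. The share of all named genes called induced under each alternative is not given here, so these counts have no such comparison. Without the level threshold, 1 gene (IRF2, not well above background) was reduced with OR-2003. The median log2 difference after DAC, OR-2003 and OR-2100 was 0.83, 0.74 and 0.94 with normexp, 1.76, 1.51 and 2.01 after quantile normalization, 1.87, 1.83 and 2.10 with the percentile of probes well above background, and 1.32, 1.25 and 1.49 over the genes well above background on all arrays. It was 1.55 and 1.41 with DAC and OR-2003 after scaling by the median, 1.54 and 2.07 with OR-2003 and OR-2100 after scaling by spike-in probes, and 1.42 and 1.71 with the same drugs for the mean of probes. A scaling adds the same value to every log2 difference of a drug. After DAC, OR-2003 and OR-2100 it was 0.20, 0.20 and 0.22 with the percentile of probes well above background. It was -0.12, -0.22 and -0.088 with the median, and 0.053, -0.092 and 0.19 with spike-in probes. For the other alternatives the cause of the shift was not tested. The median of all named genes was itself -0.11, -0.093 and -0.23 after DAC, OR-2003 and OR-2100 and moved to 0.082, 0.11 and -0.0061 with the percentile of probes well above background and to -0.23, -0.32 and -0.32 after scaling by the median. IFI44L was no longer 2-fold apart between OR-2100 and OR-2003 with normexp, or counted over the genes well above background on all arrays, where the number was 0. OR-2100 was the highest drug in 32 to 43 genes, the lowest number being of the genes well above background on all arrays. Of 648 values under 8 alternatives of the 27 genes given on every array, 0 changed sign. All 27 were so given because they were induced or became detectable with drugs, so this count says little of how steady they are. The series table and keeping marked spots left all their values as they were. Of 432 values of the other 18 genes, 45 changed sign, among them STAT2, ADAR and IFITM3 after quantile normalization. Dim signals limit the size of change of the 9 genes not well above background with mock. No paired analysis was possible because there is only 1 array per condition.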
